A study of Mus musculus with 4 samples.

Results

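Messenger RNA was counted for 9 complement genes in macrophages sorted from tumours. The genes were C1qa, C1qb, C1qc, C4b, C3, Cfb and Cfp, which encode complement components, and C3ar1 and C5ar1, which encode receptors for complement fragments. They were picked by symbol from the 39179 gene identifiers of the count files, each symbol matched 1 identifier, and all 9 were among the 14075 genes that passed the filter on low counts. FVB mice carried subcutaneous tumours of 1 of 2 cell lines. MycCaP is a prostate cancer line that arose in a MYC transgenic mouse of this strain, and MycCaP-BMP4 is its derivative that overexpresses the bone morphogenetic protein BMP4. Each of the 2 groups had 2 libraries of tumour-associated macrophages gated as positive for CD45, CD11b and F4/80 and negative for GR1. The sources used here do not give how BMP4 was expressed, whether MycCaP-BMP4 is 1 clone, the age of the mice or whether each library came from its own mouse. P-values therefore reflect only how far these libraries spread, and that spread may be technical. All 4 samples carry 1 cell type label, yet F4/80 appears in the sample titles of the MycCaP-BMP4 group alone.

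Complement is a cascade of plasma proteins that tags targets for phagocytes. In the classical pathway C1q, a hexamer of A, B and C chain bundles, binds antibody or dying cells and starts the cleavage of C4 and then of the central protein C3. In the alternative pathway factor B joins C3b to form a C3-cleaving enzyme, which properdin stabilises, and the released fragments C3a and C5a act on receptors of myeloid cells. The liver makes most plasma complement, while macrophages are a main source of C1q and properdin and carry both fragment receptors.

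The C1q genes lie together on chromosome 4 (GRCm38), within 18.7 kb from 136880129 to 136898803, all on the minus strand. Because their counts moved in parallel across the libraries, the 250 bases before the RefSeq start of C1qb and C1qc are shown (GRCm38.p6, minus strand, 5′ to 3′). Capitals mark GAGGAA, the core recognised by the myeloid factor PU.1, or its reverse complement. The C1qb bases span chr4:136886201-136886450 and the C1qc bases span chr4:136892915-136893164.
C1qb: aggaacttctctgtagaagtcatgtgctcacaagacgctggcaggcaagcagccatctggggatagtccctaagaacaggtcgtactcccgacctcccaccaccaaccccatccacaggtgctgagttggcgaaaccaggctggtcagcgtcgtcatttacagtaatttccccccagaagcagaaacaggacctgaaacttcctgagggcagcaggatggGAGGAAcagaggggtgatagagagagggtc
C1qc: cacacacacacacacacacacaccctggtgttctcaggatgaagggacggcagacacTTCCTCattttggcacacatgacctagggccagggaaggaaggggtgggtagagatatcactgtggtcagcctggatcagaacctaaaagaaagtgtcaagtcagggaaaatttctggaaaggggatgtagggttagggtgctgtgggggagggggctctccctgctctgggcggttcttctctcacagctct
The core stood 30 to 25 bases before the start of C1qb, on the strand of the gene, and 193 to 188 bases before the start of C1qc, on the other strand. These distances are from the RefSeq starts. The GENCODE M21 model of C1qc reaches to 136893065, so part of the C1qc window lies inside that model. It occurs on either strand in 23.3% of 32851 promoter windows of this length, so these matches describe the sequence and do not show a bound site. Promoters of 6 of the 9 genes were in the reference table; C1qa, C4b and Cfb were not matched. None of the 6 windows held, on either strand, the letters searched for the interferon response element (present in 2.98% of windows), the STAT site TTCNNNGAA (7.02%) or the kappa-B site (0.356%), and C3, Cfp, C3ar1 and C5ar1 did not hold the PU.1 core.

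Gene counts came to 24967143 and 24385036 in the MycCaP libraries and to 24313328 and 23058263 in the MycCaP-BMP4 libraries, and values below follow the order MycCaP replicates 1 and 2, then MycCaP-BMP4 replicates 1 and 2. A value given for a tumour is that of the cells sorted from it as macrophages. CPM is the count per 1000000 gene counts, after TMM scaling for library composition. Bmp4 had 4 and 1 counts in the MycCaP libraries and 14136 and 4138 counts in the MycCaP-BMP4 libraries. All 17 macrophage markers were detected in each library. Their summed level was 29875 and 27369 CPM in MycCaP tumours and 5908 and 23081 CPM in MycCaP-BMP4 tumours. The median of 15 pan-macrophage genes, none of them a complement gene, was 18.9% of its MycCaP mean for MycCaP-BMP4 replicate 1 and 71.6% for replicate 2. In sorted cells measured in bulk, fewer macrophages and less RNA per macrophage cannot be told apart. Tumour epithelial markers (10 genes, 1 of them at 0 in every library) summed to 112 and 145 CPM against 787 and 310 CPM. Their part in the values below was not tested.

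The comparison of the groups asks how BMP4 in the tumour relates to complement expression in the cells sorted from it as macrophages. All 9 genes lay lower in MycCaP-BMP4 replicate 1 than in both MycCaP libraries, as did 45.2% of all genes tested, and replicate 2 divided them. In replicate 2, 4 genes (C1qa, C1qb, C1qc and Cfb) lay below both MycCaP libraries, as did 39.4% of all genes, 4 (C3, C4b, C3ar1 and C5ar1) lay above both, as did 39.2%, and Cfp lay between them. The groups therefore did not overlap for 4 of the 9 genes, all lower in MycCaP-BMP4 tumours, where 29.7% of all genes tested were lower in this sense and 28.9% higher. None of the 9 passed edgeR's quasi-likelihood test at a Benjamini-Hochberg adjusted p of 0.05, and neither did any of the 14075 genes (0%). At an unadjusted p under 0.05 stood 1 of the 9, Cfb, beside 2680 genes in all (19%), of which 951 (6.76%) were lower and 1729 (12.3%) higher. DESeq2 called Cfb as the 1 gene of the 9, and 1385 genes in all (9.84%), 424 of them (3.01%) lower. limma-voom called 0. Without MycCaP-BMP4 replicate 2 the log2 fold changes of the 9 genes ran from -3.87 to -1.73. Without replicate 1 they ran from -1.75 to 0.41, with 5 below 0 and 4 above. The all-gene median was -0.03 in both fits, where the spread comes from the MycCaP pair alone. With all 4 libraries the median log2 fold change of the 9 genes was -0.75, against -0.03 for all genes and -1.18 for the pan-macrophage genes.

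**Figure D1:**
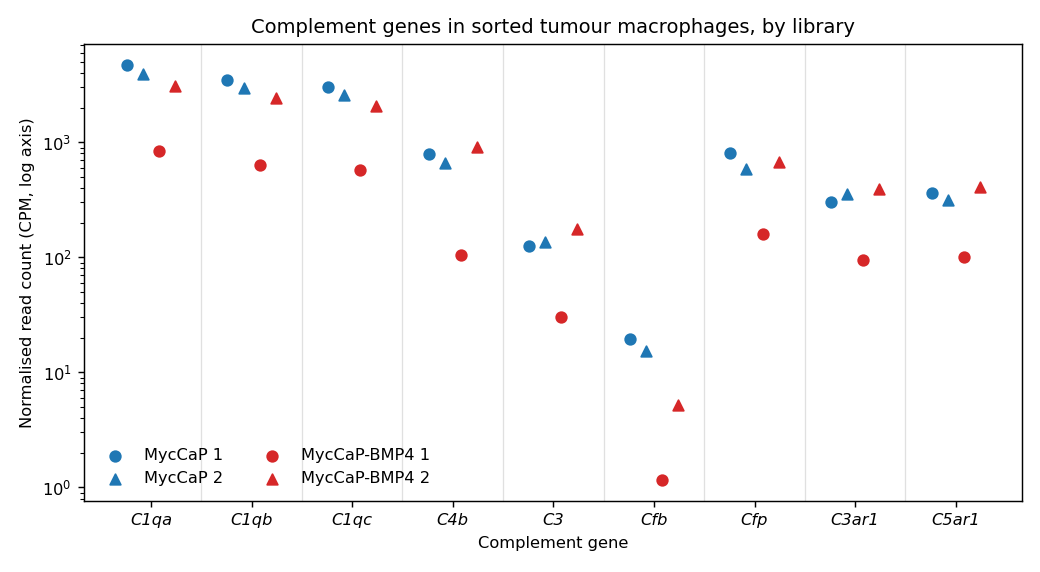
Normalised read count in CPM on a log axis for each complement gene, with 1 point per library: blue for MycCaP and red for MycCaP-BMP4, circles for replicate 1 and triangles for replicate 2. The red circles lie lowest for all 9 genes, and the red triangles lie below both blue points for C1qa, C1qb, C1qc and Cfb.

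The C1q genes were the most abundant of the 9. The 3 genes together took 1.03% and 0.918% of all gene counts in MycCaP tumours and 0.233% and 0.747% in MycCaP-BMP4 tumours. C1qa, the A chain gene (chromosome 4, 136895917 to 136898803, 3 exons), gave 4719.7 and 3903 CPM in MycCaP tumours and 840.2 and 3093 CPM in MycCaP-BMP4 tumours. C1qb, the B chain gene (136880129 to 136886187), had 3482 and 2983 CPM against 636 and 2410.1 CPM. C1qa and C1qb showed the same pattern, with MycCaP-BMP4 replicate 1 far below the other libraries. The MycCaP libraries differed 1.21-fold for C1qa and 1.17-fold for C1qb. MycCaP-BMP4 replicate 2 lay below the nearer MycCaP library by a step of similar size. C1qc, the C chain gene (136889804 to 136893065), had 3053 and 2563 CPM against 577 and 2066 CPM.

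The group means of C1qa were 4311 ± 577 CPM (SD, n = 2) and 1967 ± 1593 CPM (SD, n = 2), so the means differed by more than the SD of either group, and the MycCaP-BMP4 pair was far wider apart than the MycCaP pair. In edgeR's fit C1qa had a log2 fold change of -1.13 ± 0.73 (SE; adjusted p = 0.439). C1qb and C1qc gave -1.09 ± 0.72 and -1.09 ± 0.70, with adjusted p of 0.450 and 0.434 by edgeR. Without MycCaP-BMP4 replicate 1 the C1qa value was -0.48 (adjusted p = 0.315 by edgeR), and without replicate 2 it was -2.33 (adjusted p = 0.000265), where the spread comes from the MycCaP pair alone.

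The C1q genes lay close to the median of the pan-macrophage genes in both MycCaP-BMP4 libraries. The value used was the mean log2 difference of the 3 genes from the MycCaP mean, less the pan-macrophage median of the same library. It was 0.08 and 0.03 in the MycCaP-BMP4 libraries. In the MycCaP libraries it was 0.11 and -0.12, but there values lie near 0 by construction, since each gene is set against its own MycCaP mean. Scaled on the pan-macrophage genes, which shifted the all-gene median from -0.03 to 1.66 in log2, the C1q values were -0.004 for C1qa, 0.03 for C1qb and 0.05 for C1qc. Their profiles over the 4 libraries differed from one another by a Euclidean distance of 0.06 to 0.07 in centred log2 CPM. Among 4164 other genes with a mean of at least 50 CPM, the profiles nearest to the C1q mean were those of Psap, which encodes the lysosomal precursor prosaposin (distance 0.03), Alox5ap, the 5-lipoxygenase activating protein gene (0.03), the adaptor gene Gab1 (0.06) and the TNF receptor gene Tnfrsf1b (0.06). These are descriptions over 4 libraries that share 1 large contrast, the low MycCaP-BMP4 replicate 1.

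The proportion of the 3 chains was nearly constant. Per kilobase of merged exons, C1qa stood at 4538 and 3753 CPM per kb in MycCaP tumours and at 808 and 2974 in MycCaP-BMP4 tumours. The ratio of C1qa to C1qb per length was 1.42 and 1.37 in MycCaP tumours and 1.38 and 1.34 in MycCaP-BMP4 tumours, while the level itself differed 5.62-fold between the highest and the lowest library. The ratio of C1qc to C1qb per length was 0.494 and 0.484 against 0.511 and 0.483. Its size depends on the length used, since the merged exons of C1qc (1931 bases) exceed its longest coding transcript (1203 bases). With coding transcript lengths the ratio was 0.793 and 0.777 against 0.821 and 0.775. With either length the order was C1qa, C1qb, C1qc in every library.

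**Figure D2:**
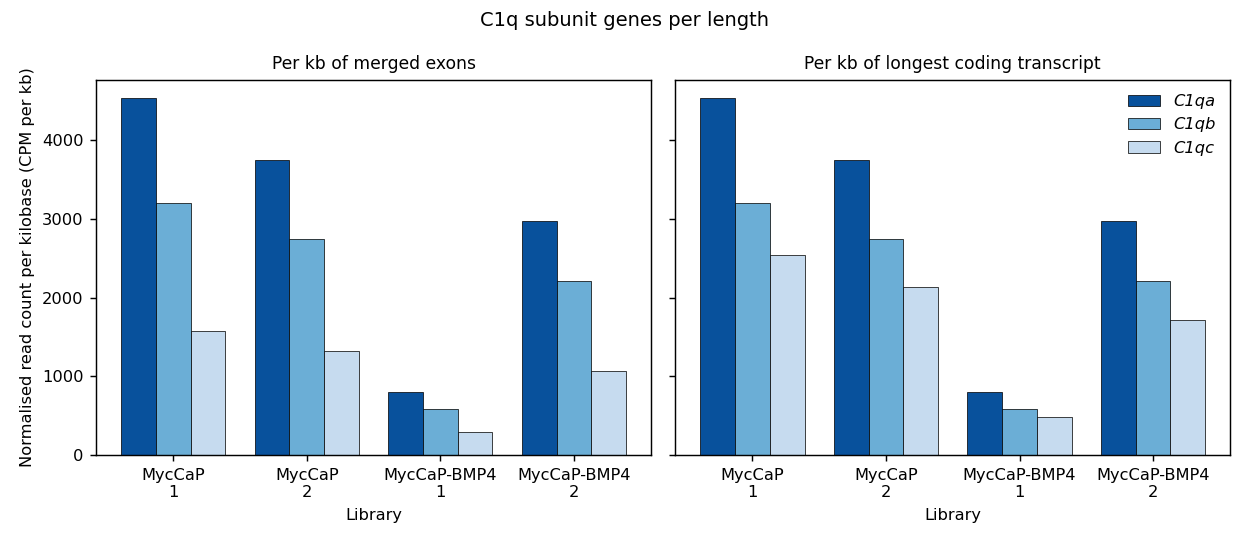
Normalised read count per kilobase (CPM per kb) of C1qa, C1qb and C1qc in each library, per kb of merged exons on the left and of the longest coding transcript on the right; bars are single libraries and have no error. The bars shrink together in MycCaP-BMP4 replicate 1, and the C1qa to C1qb ratio stays between 1.34 and 1.42.

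C4b, the next component of the classical pathway, was spread most of the 9 genes between the MycCaP-BMP4 libraries. The gene (chromosome 17, 34728380 to 34743882) gave 792 and 657 CPM in MycCaP tumours and 105 and 918 CPM in MycCaP-BMP4 tumours. Replicate 2 held 8.76 times the CPM of replicate 1, against 3.58 to 3.79 times for the C1q genes and a median of 3.57 times for the pan-macrophage genes. The means were 725 ± 95.3 CPM and 511 ± 575 CPM (SD, n = 2 each), and the SD of the MycCaP-BMP4 group exceeds the gap between them. The log2 fold change was -0.50 ± 0.92 (SE; adjusted p = 0.787 by edgeR), and it turned to 0.34 without MycCaP-BMP4 replicate 1. Reads of C4b can be mistaken for those of its neighbour C4a, since their longest transcripts are 96.0% identical over 5378 bases. C4a had 10.6 and 7.01 CPM against 2.93 and 10.02 CPM, a small part of the C4b level.

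C3, the protein on which all pathways meet, had messenger RNA at a modest level. Its gene (chromosome 17, 57203970 to 57228136) gave 126 and 136 CPM in MycCaP tumours and 29.98 and 175 CPM in MycCaP-BMP4 tumours. The MycCaP-BMP4 values lay on both sides of the MycCaP values, so the groups overlapped. The log2 fold change was -0.36 ± 0.75 (SE; adjusted p = 0.817 by edgeR) and turned to 0.41 without MycCaP-BMP4 replicate 1. Among the genes with the nearest profiles were Adam8, a membrane metalloprotease gene (distance 0.06), the ectoenzyme gene Cd38 (0.12) and Pitpnc1 (0.16).

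Cfb, which encodes factor B of the alternative pathway, was the gene that lay furthest below the macrophage level. It had 19.4 and 15.3 CPM (444 and 363 counts) in MycCaP tumours and 1.16 and 5.18 CPM (32 and 118 counts) in MycCaP-BMP4 tumours. The groups did not overlap, and the means were 17.4 ± 2.90 and 3.17 ± 2.85 CPM (SD, n = 2 each), a difference larger than the spread of either group. The log2 fold change came to -2.46 ± 0.72 (SE), with adjusted p-values of 0.180 by edgeR and 0.00519 by DESeq2. The adjusted p ranged from 0.000146 to 0.890 over the settings tried with the labelled replicate numbers. It passed the 0.05 threshold with DESeq2, with no filter on low counts (0.0155), without MycCaP-BMP4 replicate 1 (0.0086) and without replicate 2 (0.000146). Less the pan-macrophage median of its library, Cfb stood at -1.50 in MycCaP-BMP4 replicate 1 and at -1.26 in replicate 2, and it was the 1 gene of the 9 below the range of all 15 pan-macrophage genes in both libraries. Scaled on the pan-macrophage genes its log2 fold change was -1.40 (adjusted p = 0.345 by edgeR).

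The Cfb level itself is uncertain. In GENCODE M21, 79.5% of its 2825 merged exon bases (chromosome 17, 34856374 to 34862518) also belong to Gm20547, a gene model on the same strand, which had 0 counts in every library. A read in such shared bases may have been set aside as ambiguous, which was not tested, and the annotation release the authors used is not stated in those sources. Cfb is therefore compared here between libraries and not with other genes. Per kilobase of its 579 unshared bases it would stand at 33.5 and 26.5 CPM per kb in MycCaP tumours and 2.00 and 8.95 in MycCaP-BMP4 tumours, and at 6.88 and 5.43 against 0.410 and 1.84 over all exons.

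Cfp, which encodes properdin (chromosome X, 20925454 to 20931555), had 814 and 591 CPM in MycCaP tumours and 158 and 679 CPM in MycCaP-BMP4 tumours. Replicate 2 of the MycCaP-BMP4 group lay between the MycCaP libraries, which themselves differed 1.38-fold, the widest gap of that pair among the 9 genes. The log2 fold change was -0.75 ± 0.70 (SE; adjusted p = 0.583 by edgeR). The nearest profiles belonged to Tnfaip2 (distance 0.10), the lysosomal nuclease gene Dnase2a (0.13), Slfn2 (0.14) and Nfkbid (0.15).

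The fragment receptor genes had nearly equal fold changes. C3ar1, the C3a receptor gene (chromosome 6, 122847138 to 122856161), gave 303 and 353 CPM in MycCaP tumours and 94.6 and 396 CPM in MycCaP-BMP4 tumours. C5ar1, the C5a receptor gene (chromosome 7, 16246743 to 16259540), gave 364 and 314 CPM against 100.2 and 408 CPM. For both, MycCaP-BMP4 replicate 1 was lowest and replicate 2 highest of all libraries, so the groups overlapped. The log2 fold changes were -0.42 ± 0.66 and -0.42 ± 0.65 (SE), with adjusted p of 0.746 and 0.744 by edgeR, and they turned to 0.27 and 0.26 without MycCaP-BMP4 replicate 1. Less the pan-macrophage median, C3ar1 stood at 0.61 and 0.75 in the 2 MycCaP-BMP4 libraries and C5ar1 at 0.65 and 0.75.

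Relative to the macrophage genes, the 9 members did not all take the same place. In MycCaP-BMP4 replicate 1 the pan-macrophage genes lay between -2.88 and -1.72 in log2 from the MycCaP mean, with C5ar1 at -1.76 and C3ar1 at -1.79 near the top of that range, C4b at -2.79 near the bottom and Cfb at -3.91 below it. In replicate 2 the range was -1.43 to 0.23. There C3 at 0.42, C4b at 0.34, C3ar1 at 0.27 and C5ar1 at 0.26 lay above it, and Cfb at -1.74 lay below. The top of that range was Cd68 alone, which C3ar1 and C5ar1 passed only narrowly. In replicate 1, 0 members lay above the range. The share of all genes outside these ranges was not counted. The 3 C1q genes were inside the range in both libraries, and so was Cfp. The difference between members was not tested. Scaled on the pan-macrophage genes, the log2 fold changes were 0.31 for C4b, 0.59 for C3, 0.32 for Cfp, 0.65 for C3ar1 and 0.67 for C5ar1, none of which passed. The median of all genes tested was 1.66 under that scaling.

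**Figure D3:**
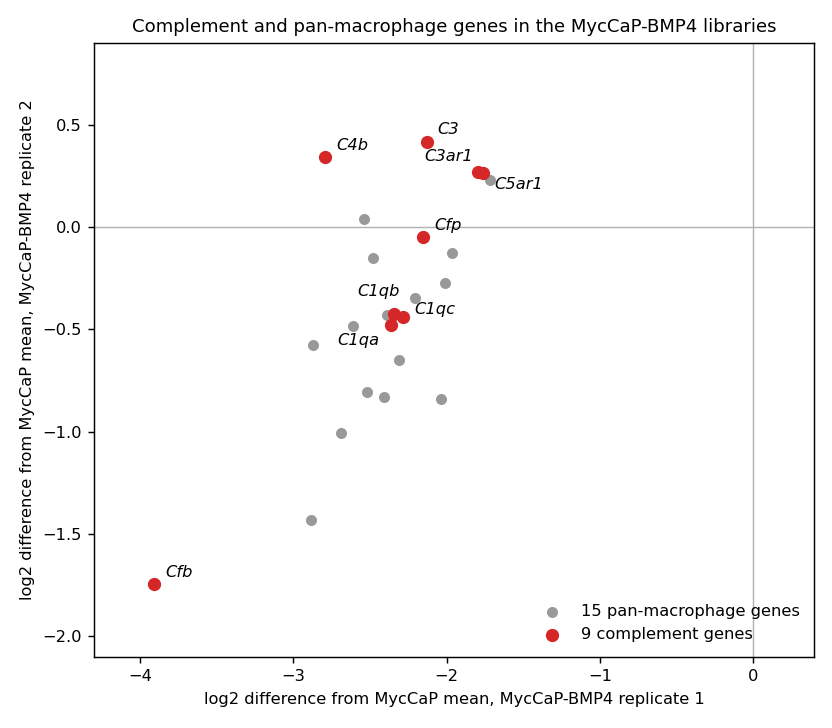
Each point is a gene, placed by its log2 difference from the MycCaP mean in MycCaP-BMP4 replicate 1 (horizontal) and replicate 2 (vertical), with complement genes in red and pan-macrophage genes in grey; lines mark no difference. The C1q genes sit among the grey points, Cfb lies below and left of them, and C3, C4b, C3ar1 and C5ar1 lie above all grey points.

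Per kilobase of merged exons the order of levels in MycCaP tumours was C1qa at 4146 ± 555, C1qb at 2971 ± 324, C1qc at 1454 ± 179, Cfp at 405 ± 90.6, C5ar1 at 132 ± 13.8, C4b at 127 ± 16.7, C3ar1 at 76.3 ± 8.18 and C3 at 25.5 ± 1.36 CPM per kb (SD, n = 2). C5ar1 and C4b, neighbours in that order, differed by less than their spread, and the other neighbours differed by more. In the MycCaP-BMP4 libraries the first 4 places were the same, and C4b stood behind C3ar1 in replicate 1 and ahead of C5ar1 in replicate 2.

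Other genes of the cascade were grouped in lists by role. Scaled on the pan-macrophage genes, the list medians turned positive for the classical and lectin components (0.79), the alternative and terminal components (0.47), the membrane regulators (0.97), the other receptors (0.26) and the upstream regulators (0.20). Under this scaling the median of all genes tested was 1.66, above each of these medians. Of 14 further components of the classical and lectin pathways, 7 were tested, none passed, and the median log2 fold change was -0.44. The groups did not overlap for 1 that was lower and 1 that was higher in MycCaP-BMP4 tumours. Of all genes tested, 29.7% were lower and 28.9% higher in this sense. C1ra, which encodes the C1r protease that C1q activates, had 19.2 and 22.7 CPM against 6.48 and 15.4 CPM. Masp1, a protease gene of the lectin pathway, went the other way with 0.175 and 0.338 CPM (4 and 8 counts) against 11.6 and 3.08 CPM (320 and 70 counts). Its log2 fold change was 4.81 ± 0.91 (SE; adjusted p = 0.132 by edgeR), and its order between the MycCaP-BMP4 libraries matched that of Bmp4 and the summed epithelial markers, whose part in it was not tested. Fcna, the ficolin A gene, had 231 and 150.5 CPM against 95.1 and 415 CPM, so its groups overlapped. C1rb and C1s1 stayed under 5 CPM in every library, with log2 fold changes of -0.86 ± 0.85 and -0.62 ± 0.77. Mbl1, Mbl2, Fcnb, Masp2 and Colec10 had no count in any library.

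The late components other than C6 were scarce. Of 8 genes of the alternative and terminal pathways, 3 were tested and none passed (median -0.37). The MycCaP-BMP4 pair lay below the MycCaP pair for 1 of them, beside 29.7% of all genes tested. C6 had 31.8 and 25.3 CPM against 4.82 and 39.5 CPM. C7 had 1.36 and 2.32 CPM (31 and 55 counts) against 1 and 0 counts, with an adjusted p of 0.124 by edgeR. Both proteins belong to the membrane attack complex. C8g stayed under 1.5 CPM in every library. C8a, C8b and C9 had no count, and Hc, which encodes C5, had none in MycCaP tumours and at most 0.220 CPM in the others.

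Of 8 soluble regulators, 5 were tested. Groups did not overlap for 4 of these, with 3 higher and 1 lower in MycCaP-BMP4 tumours, beside 28.9% higher and 29.7% lower of all genes tested, and none passed. The median log2 fold change was 0.61, also with Vtn at its bound. Clu, the clusterin gene, had 10.3 and 11.7 CPM in MycCaP tumours and 97.7 and 43.7 CPM in MycCaP-BMP4 tumours, a log2 fold change of 2.68 ± 0.44 (SE; adjusted p = 0.118 by edgeR). Serping1, which encodes the C1 inhibitor, had 49.4 and 76.4 CPM against 110.8 and 80.6 CPM. Cpn1, a gene of carboxypeptidase N, which trims C3a and C5a, had 0.263 and 0.296 CPM against 0.616 and 0.483 CPM. These values rest on only 6 and 7 counts against 17 and 11 counts. The vitronectin gene Vtn was the exception, with 9.93 and 14.8 CPM (227 and 350 counts) in MycCaP tumours and 0 counts in both MycCaP-BMP4 libraries. Against a floor of 3 counts over that group it was at least 207-fold lower (adjusted p = 0.0891 by edgeR). Both Clu and Serping1 were highest in the library with the highest summed epithelial markers, whose part in this was not tested. Fibroblast and mural markers (8 genes) summed to 157 and 400 CPM against 264 and 290 CPM. Hepatocyte markers (4 genes) summed to 0.527 to 1.63 CPM in all libraries.

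Membrane regulators and the remaining receptors were lower or mixed. Of 6 membrane regulators, 3 were tested and 2 had the MycCaP-BMP4 pair below the MycCaP pair (median -0.55), with none past the threshold. Of all genes tested, 29.7% were lower and 28.9% higher in this sense. Among the 15 pan-macrophage genes, 12 were lower and 0 higher. Cr1l, which encodes the mouse C3 convertase regulator Crry, had 76.6 and 78.2 CPM against 41.4 and 64.5 CPM, a log2 fold change of -0.55 ± 0.30 (SE; adjusted p = 0.366 by edgeR). Cd59a had 5.77 and 6.38 CPM against 2.17 and 5.14 CPM, and Cd55 stayed under 2.1 CPM. Of 6 other receptors, 5 were tested and 3 lay lower (median -0.78), again with none past the threshold. These 3 were the integrin genes of complement receptors 3 and 4: Itgam, Itgax and Itgb2.

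Itgax had 119 and 132 CPM in MycCaP tumours and 11.6 and 55.7 CPM in MycCaP-BMP4 tumours, a log2 fold change of -1.90 ± 0.70 (SE; adjusted p = 0.238 by edgeR). Itgam, which encodes the CD11b used in the sort, had 714 and 876 CPM against 127 and 620 CPM, and their partner Itgb2 had 582 and 557 CPM against 121 and 544 CPM. Vsig4, a macrophage receptor for C3b, had 20.04 and 17.4 CPM against 13.7 and 98.7 CPM. The MycCaP-BMP4 libraries thus lay on both sides of the MycCaP libraries for Vsig4, as they did for C3. C5ar2, the other C5a receptor gene, stood at 14.7 and 11.7 CPM against 3.73 and 20.6 CPM, with the libraries in the same order as for C5ar1.

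**Figure D4:**
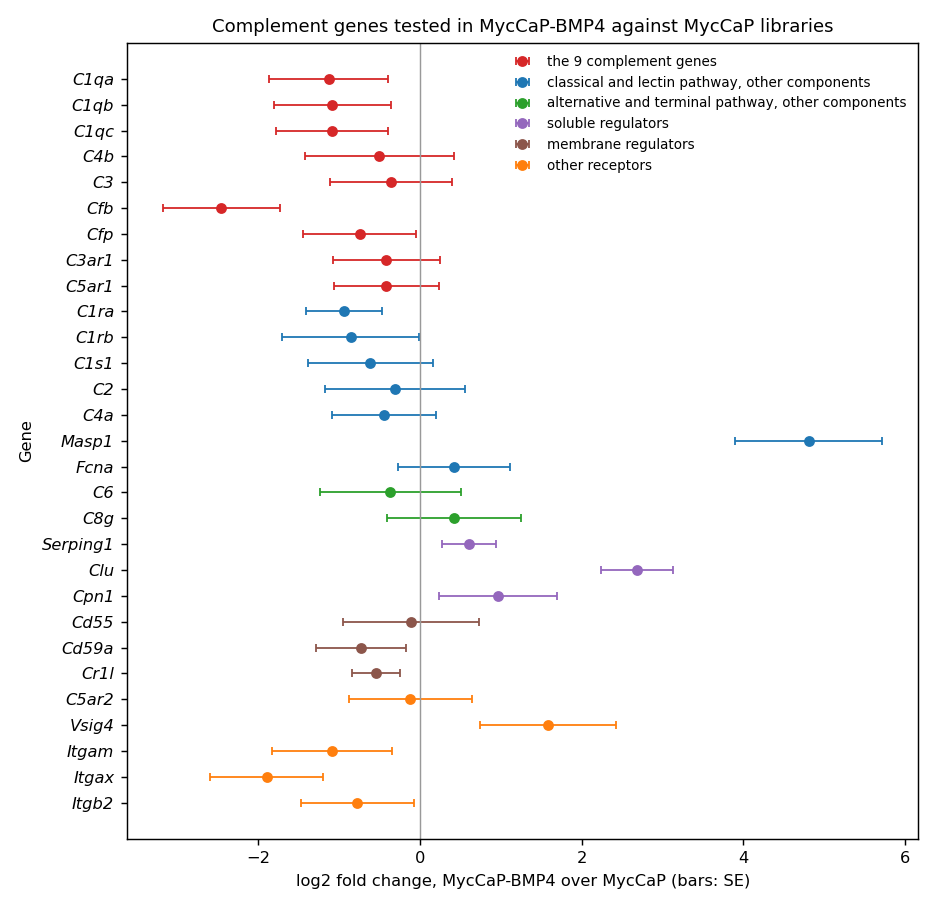
Log2 fold change of MycCaP-BMP4 over MycCaP with its SE for the 9 complement genes and for tested members of 5 further lists, coloured by list; Vtn and C7, with at most 1 count in the MycCaP-BMP4 group, are among those left out. No gene passed the test; Cfb is lowest at -2.46 and Masp1 highest at 4.81.

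Regulators known to act on complement genes were also counted. Of 13 genes, all of which were tested, the MycCaP-BMP4 pair lay below the MycCaP pair for 9, above it for none, and no gene passed, with a median log2 fold change of -1.06. The same held for 12 lower and 0 higher of the 15 pan-macrophage genes, and for 29.7% lower and 28.9% higher of all genes tested. Ifng, the interferon-gamma gene, whose product induces Cfb in many cells, had 41 and 45 counts in MycCaP tumours and 0 and 1 count in MycCaP-BMP4 tumours. Irf1, an interferon-induced transcription factor gene, had 300.3 and 246 CPM against 73.9 and 147 CPM. Tnf had 472 and 431 CPM against 42.8 and 240 CPM, and Il1b had 2599 and 2133 CPM against 352 and 1224 CPM. Spi1, the gene of PU.1, had 361 and 330 CPM against 88.0 and 290.3 CPM. Irf8 had 238 and 233 CPM against 40.6 and 146 CPM, Cebpb had 689 and 403 CPM against 147 and 375 CPM, and Stat3 had 267 and 258.3 CPM against 137 and 258.1 CPM. These encode transcription factors of myeloid cells or, for Stat3, of the response to interleukin-6. The groups overlapped for Rela and Nfkb1, the kappa-B factor genes, and for Il6. Markers of T and NK cells (7 genes), cells that a gate on CD11b and F4/80 should mostly remove, summed to 69.3 and 75.7 CPM against 14.01 and 43.4 CPM, and their part in the Ifng and Cfb values was not tested.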

How the data were processed

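For each of 4 libraries the authors deposited read counts, as whole numbers for each gene; the submitters' processing notes name STAR 2.6.0b, HTSeq, RSEM and Bowtie2 2.2.3 and the builds mm10 and GRCm38, without their roles. The libraries were poly(A)-selected and strand-specific, per the labels' protocols. Which strand setting and annotation were used for counting is not given in the sources used here. Of 39179 identifiers, 37607 matched a symbol and 37693 matched a GENCODE M21 gene on GRCm38. The counter's summary lines did not enter library sizes. Reads outside genes made up 3.37% to 6.03% of all counted reads, ambiguous reads 2.70% to 2.90% and multiply aligned reads 8.01% to 10.6%. Groups follow the cell line label.

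Counts were filtered with filterByExpr, scaled with TMM factors (0.916 to 1.14) and tested across all genes with edgeR 4.0.16 (R 4.3.3), quasi-likelihood F test, two-sided, Benjamini-Hochberg adjusted, with no covariate. Alternatives used DESeq2 1.42.0 and limma-voom (limma 3.58.1), other scalings and filters, a replicate block and each library left out. The fit was also run on simulated data that gave both groups the spread of the MycCaP pair. Such data lack the wider spread of the MycCaP-BMP4 pair. Levels per length use merged exons. C4a and C4b transcripts were aligned with blastn 2.17.0. A floor of 3 counts was worth 0.120 to 0.130 CPM of gene counts and accounts for counting error alone. Replicates differed beyond sampling noise, with a chi-square per degree of freedom of 46.4 for MycCaP and 303 for MycCaP-BMP4. Members and lists were chosen with earlier results of these data known. From each other list, the text names the 4 members with the smallest p and those reaching 50 CPM in any library, and, for profiles like those of the C1q genes, C3 and Cfp, the 4 nearest of the 4164 genes with a mean of at least 50 CPM; Bmp4, C4a, C5ar2, Hc, Il6, Gm20547 and the genes without counts fall outside this rule and were added after their values were seen. A few named-gene results are not reported here.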

Additional observations from a re-analysis of the deposited data

How the results depend on the processing

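Across all genes the calls were 0 in the test as designed, 65 with library size alone, 1076 scaled on the pan-macrophage genes, 1109 with no filter on low counts and 1385 by DESeq2, and 0 to 5753 with 1 library left out. Of the 9 complement genes, 1 (Cfb) was called with no filter and by DESeq2. Lower in both MycCaP-BMP4 libraries were 4 genes and higher 0, beside 29.7% lower and 28.9% higher of all genes tested. Scaled on the pan-macrophage genes, 1 was lower (Cfb) and 4 were higher. That scaling moved the all-gene median log2 fold change to 1.66. The share of all genes higher under it was not counted, so the 4 higher genes cannot be read as a trait of the complement genes. The lower genes numbered 4 or 9 when a single MycCaP-BMP4 library was compared, an alternative added after seeing the data. Scaled on the pan-macrophage genes, log2 fold changes turned positive for C1qb (0.030), C1qc (0.053), C4b (0.31), C3 (0.59), Cfp (0.32), C3ar1 (0.65) and C5ar1 (0.67). Without MycCaP-BMP4 replicate 1 those of C4b (0.34), C3 (0.41), C3ar1 (0.27) and C5ar1 (0.26) turned positive, and without replicate 2 they were -2.76, -2.101, -1.77 and -1.73. The cause was not tested.

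List medians scaled on the pan-macrophage genes were 0.00072 for that list, 0.79 for classical and lectin components, 2.44 for soluble regulators, 0.97 for membrane regulators and 0.20 for upstream regulators, and with no filter the soluble regulator median was 0.10 and that of the alternative and terminal components turned to 0.41. With 1 library left out, list medians ranged from -2.38 to -0.48 (pan-macrophage), -1.52 to 0.19 (classical and lectin), -2.54 to 0.30 (alternative and terminal), 0.31 to 0.95 (soluble regulators), -1.41 to 0.17 (membrane regulators), -2.21 to -0.068 (other receptors) and -1.94 to -0.55 (upstream regulators). With coding transcripts as the length, a choice made after seeing the data, the C1qc to C1qb ratio was 0.793, 0.777, 0.821 and 0.775.

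The labels share replicate numbers between groups but nothing says that these pair the samples, and deviations of same-numbered libraries correlated at -0.127 across genes. A replicate block gave 2 calls in all and 0 among the 9 genes, and with the numbers crossed, added after seeing the data, 689 and 1.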
